A study of Mus musculus with 18 samples.

Results

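The genes described here encode the enzymes of the glutathione and thioredoxin systems and the other antioxidant enzymes of the cell, in the cerebellum of mice given paraquat. They were chosen by symbol. The families with symbols starting with Gst, Gpx, Prdx, Txnrd and Msr were taken, together with Txn1, Txn2, Sod1, Sod2, Sod3, Cat, Gsr, Gss, Gclc, Gclm, Nqo1, Srxn1, Glrx, Ephx1, G6pdx, Nfe2l2 and Keap1. Of the 12393 genes with a probe set of a single symbol, 52 belonged to this set, and 40 of them were among the 8320 genes whose signal was high enough to be tested. G6pdx, Prdx5 and Prdx6 were not analysed here, and neither was Prdx1, whose 5 probe sets carried several symbols. The prefix Msr also takes in Msr1, the macrophage scavenger receptor, which is no methionine sulfoxide reductase.

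Gene expression was measured with Affymetrix 3′ arrays in adult males aged 80 ± 5 days of 3 genotypes. These were wild-type mice, mice lacking ApoD (ApoD knock-out) and Human-ApoD transgenic mice. In the latter, apolipoprotein D (ApoD), a lipid-binding lipocalin, is over-expressed in neurons. Mice received a single intraperitoneal injection of 200 µl, either saline or paraquat at 30 mg/kg in saline, and the cerebellum was taken after 6 h. Each of the 6 groups had 9 mice, and RNA of 3 of them was pooled for each of its 3 arrays, so that replicate error here means differences between pools of mice. Paraquat is named in the titles of its arrays, and the arrays without it were assigned to saline on the basis of the protocol. The promoter that drives the transgene and the number of founder lines are not given in the sources used here.

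Paraquat is a herbicide that cycles between oxidised and reduced forms and passes electrons to oxygen, which makes superoxide. Superoxide dismutases turn superoxide into hydrogen peroxide, which catalase, glutathione peroxidases and peroxiredoxins remove. Glutathione, reduced by Gsr, and thioredoxin, reduced by the Txnrd enzymes, supply the electrons for much of this work. The transcription factor NRF2 (Nfe2l2), held back by KEAP1, is the known activator of many of these genes under oxidative stress, through the antioxidant response element in their promoters.

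Values are log2 expression as deposited, and a difference of groups is a log2 fold change from limma, fitted on all 18 arrays, with its standard error (SE). A gene was called when its two-sided p, adjusted by Benjamini and Hochberg over all 8320 genes of a comparison, was under 0.05. Of the 40 members tested, 37 reached the floor of the test, the 40th percentile of the array, on all 18 arrays. Gpx7 reached it on 14 arrays, and Gpx8 and Nqo1 on 16. The other 12 members stayed below it on all arrays but 1 at most: Gpx5, Gpx6, Gsta2, Gsta3, Gstm2, Gstm3, Gstm4, Gstm6, Gstp3, Gstt2, Gstt3 and Msr1. Of these, Gstm2, Gstm3 and Gstm4 reached the floor on 1 array each. The highest means over all arrays were 12.15 for Gpx4, 12.07 for Gstp1 and 11.56 for Prdx2, and the lowest were 4.08 for Gsta2, 4.83 for Gpx6 and 4.90 for Gsta3. Array levels of different probe sets cannot be compared with each other, so these means only place the genes within the range of the array.

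Knock-out paraquat array 2 stood apart from the others. It had a median of 6.98, against 7.10 to 7.15 on the other arrays, and a mean correlation with the other arrays of 0.971, against 0.986 to 0.993. Of the 40 members, 15 had their lowest value of all 18 arrays on it, beside 50.5% of all genes tested. On transgenic arrays 3 of both treatments, the 3′ minus 5′ difference of the pyruvate carboxylase control was 1.82 (saline) and 1.95 (paraquat), against 2.25 on knock-out paraquat array 2, and 2.63 to 3.16 on the others, which is a measure of RNA integrity and labelling. Markers of cerebellar neurons were high throughout: the mean of 6 Purkinje neuron genes lay between 12.4 and 12.7 on every array. Mouse Apod read 8.22 to 9.83 on the knock-out arrays and 12.13 to 12.76 on all others, and it was not higher in the transgenic, whose extra transcript is human.

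In wild-type mice, paraquat raised 2 of the 40 antioxidant genes, Msrb1 and Nqo1, and lowered none. Msrb1 rose 1.49-fold and Nqo1 1.33-fold. The 2 members called are 5.00% of those tested, beside 2.0% of all 8320 genes in the same comparison. In knock-out mice Msrb1 alone was called, higher by 1.37-fold, which is 2.50% of the members beside 2.26% of all genes. In transgenic mice no member was called, beside 0% of all genes, since no gene at all passed in that comparison. There, 118 of the 8320 genes had an unadjusted p under 0.05, and none of these was a member. Averaged over the 3 genotypes, Msrb1 and Nqo1 were called again, 5.00% of the members beside 4.89% of all genes.

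The promoters of the called genes and of a classical NRF2 target are shown here because the antioxidant response element is the known route from oxidative stress to this gene set. Each line gives the 250 bases before a start site, from RefSeq on GRCm38.p6, in the direction of transcription. Capitals mark the core of the element, TGACNNNGC or its reverse complement. Msrb1 lies at chr17:24736343-24736592 on the plus strand, Nqo1 at chr8:107403206-107403455 on the minus strand and Gclm at chr3:122245307-122245556 on the plus strand.
Msrb1: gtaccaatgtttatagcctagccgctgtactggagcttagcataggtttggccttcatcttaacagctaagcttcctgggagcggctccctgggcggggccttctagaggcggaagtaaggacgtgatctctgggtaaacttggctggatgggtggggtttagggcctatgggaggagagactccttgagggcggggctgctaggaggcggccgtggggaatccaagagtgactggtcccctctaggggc
Nqo1: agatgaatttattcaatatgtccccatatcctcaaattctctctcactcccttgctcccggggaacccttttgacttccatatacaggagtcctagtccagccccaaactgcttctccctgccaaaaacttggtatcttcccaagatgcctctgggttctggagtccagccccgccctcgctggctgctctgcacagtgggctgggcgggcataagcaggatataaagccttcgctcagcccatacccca
Gclm: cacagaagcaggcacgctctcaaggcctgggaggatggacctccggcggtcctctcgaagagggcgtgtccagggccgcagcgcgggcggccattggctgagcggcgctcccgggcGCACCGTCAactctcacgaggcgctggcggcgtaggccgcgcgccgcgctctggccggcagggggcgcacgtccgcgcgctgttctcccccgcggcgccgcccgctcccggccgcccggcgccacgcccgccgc
The windows of Msrb1 and Nqo1 hold no match to the core, which says only that these letters are not in this window. The window of Gclm holds a match on the minus strand that starts 134 bases before the start site. A window was found for 45 of the 52 members, and 7 of these genes (15.6%) had a match, beside 11.5% of all genes with such windows. The 7 are Gclm, Gsta3, Gstm5, Gstm7, Nfe2l2, Sod1 and Txnrd1. Of these, Gsta3 was not tested, and none of the other 6 was called in a comparison of paraquat with saline. Those comparisons called between 0% and 4.89% of all genes, so 6 genes without a call cannot speak to the element.

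Msrb1, the selenoprotein that reduces oxidised methionine in proteins in the cytosol and nucleus, gave the clearest response. In wild-type mice its log2 values were 9.05, 8.96 and 9.19 under saline and 9.65, 9.57 and 9.70 under paraquat. All 3 paraquat arrays lay above all saline arrays, and the log2 fold change was 0.58 (SE 0.10, adjusted p = 0.0024, limma). In knock-out mice the values were 8.99, 9.07 and 9.13 under saline and 9.58, 9.55 and 9.43 under paraquat. The groups again did not overlap, and the log2 fold change was 0.46 (SE 0.10, adjusted p = 0.017, limma). In transgenic mice the values were 9.11, 9.30 and 9.40 under saline and 9.26, 9.29 and 9.24 under paraquat, so that the paraquat arrays lay within the range of the saline arrays. The log2 fold change there was -0.01, with a 95% confidence interval of -0.21 to 0.20. Msrb1 in wild-type mice was called in 26 of 26 alternative analyses. In knock-out mice the call was lost without the first or the second knock-out saline array (adjusted p = 0.106 and 0.0913, limma) or without the first knock-out paraquat array (adjusted p = 0.0514, limma), and in a fit of the compared arrays only (adjusted p = 0.18, limma). Without knock-out paraquat array 2 the log2 fold change in knock-out mice was 0.44 (adjusted p = 0.024, limma).

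The other methionine sulfoxide reductases were not called under paraquat. Msra, which acts on the S form of methionine sulfoxide, had a log2 fold change of 0.26 in wild-type mice (SE 0.13, adjusted p = 0.57, limma). Its wild-type values were 8.24, 8.22 and 8.23 under saline and 8.47, 8.58 and 8.42 under paraquat, which did not overlap. Msra was called in wild-type mice in a fit of the compared arrays only (849 of all genes called) and with array weights (1059). In knock-out mice it was called with array weights (2173 of all genes called). The mitochondrial Msrb2 had a log2 fold change of 0.15 there (SE 0.10).

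Nqo1 encodes a quinone reductase that is widely used as a readout of NRF2 activity. In wild-type mice its log2 values were 6.52, 6.40 and 6.56 under saline and 6.95, 6.84 and 6.92 under paraquat. These groups did not overlap, and the log2 fold change was 0.41 (SE 0.10, adjusted p = 0.040, limma). In knock-out mice the values were 6.37, 6.39 and 6.28 under saline and 6.83, 6.50 and 6.55 under paraquat. The first paraquat array was the highest, the groups did not overlap, and the log2 fold change of 0.28 was not called (SE 0.10, adjusted p = 0.16, limma). In transgenic mice the values were 6.39, 6.57 and 6.51 under saline and 6.52, 6.55 and 6.40 under paraquat, which covered almost the same range. The call in wild-type mice was close to the threshold. It was lost in 10 of the 18 analyses that left out 1 array, with an adjusted p between 0.0530 and 0.253 by limma. These were each of the 6 wild-type arrays, each of the 3 knock-out saline arrays and the second transgenic paraquat array. The average over the genotypes, 0.23 (SE 0.06, adjusted p = 0.027, limma), was lost in 10 of 18 as well, with an adjusted p between 0.0502 and 0.0731 by limma. The arrays behind these losses were wild-type saline arrays 1 and 2, all 3 knock-out saline arrays, transgenic saline array 1, wild-type paraquat arrays 1 and 3, knock-out paraquat array 1 and transgenic paraquat array 2.

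**Figure D1:**
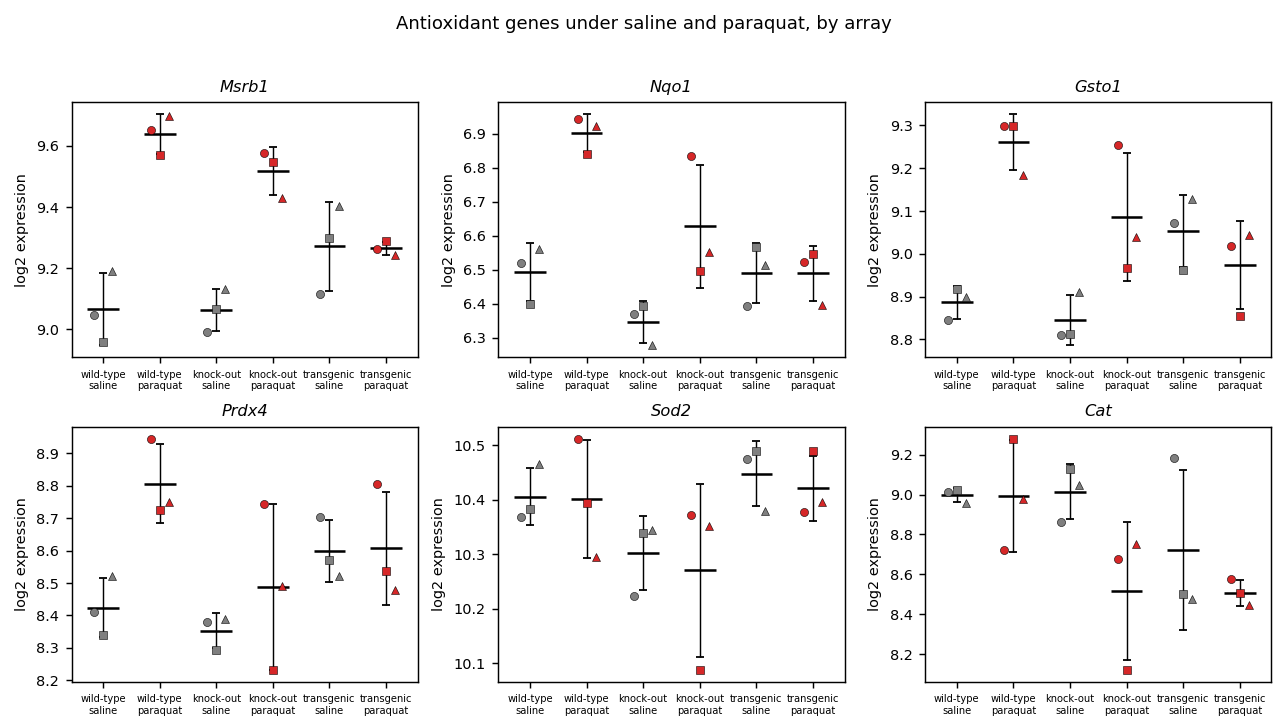
Log2 expression of Msrb1, Nqo1, Gsto1, Prdx4, Sod2 and Cat on each of the 18 arrays, by group; circles, squares and triangles are replicates 1, 2 and 3, grey is saline and red is paraquat, the thick line is the group mean and the bar 1 SD (n = 3). Msrb1 lies between 9.57 and 9.70 on the wild-type paraquat arrays, above all wild-type saline arrays, while the transgenic groups overlap.

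The glutathione transferases conjugate glutathione to reactive compounds. Of the 18 on the array, 9 were tested, and none was called under paraquat in any genotype. The omega class enzyme Gsto1 came closest. Its wild-type values were 8.84, 8.92 and 8.90 under saline and 9.30, 9.30 and 9.18 under paraquat, with no overlap, and its log2 fold change was 0.37 (SE 0.10, adjusted p = 0.054, limma). Its second probe set gave 0.32. In knock-out mice the log2 fold change of Gsto1 was 0.24 (SE 0.10) and in transgenic mice -0.08 (SE 0.10). After a further quantile normalisation it was 0.34 in knock-out mice and was called there (adjusted p = 0.043, limma). Without knock-out paraquat array 2, which is not part of the wild-type comparison but enters the shared estimate of spread, Gsto1 was called in wild-type mice (adjusted p = 0.012, limma). It was also called there without the first knock-out paraquat array (adjusted p = 0.037, limma), in a fit of the compared arrays only and with array weights. With array weights Gsto1 was called in knock-out mice too. Gstm1, a mu class transferase, had values of 10.73, 10.93 and 11.31 under saline and 11.29, 11.33 and 10.98 under paraquat in transgenic mice. The ranges overlapped, and the log2 fold change was 0.21 (SE 0.14). It ran from 0.08 to 0.37 with 1 array left out and was 0.48 without transgenic arrays 3 of both treatments, and Gstm1 was called with array weights (adjusted p = 0.026, limma). The Gstm genes are close copies of each other, and probe sets that read several of them are on the array, so that values of single Gstm genes are uncertain.

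The peroxiredoxins reduce hydrogen peroxide with electrons from thioredoxin, and sulfiredoxin (Srxn1) repairs those that were overoxidised. None of the 4 tested was called under paraquat. Prdx4, the peroxiredoxin of the endoplasmic reticulum, read 8.41, 8.34 and 8.52 under saline and 8.94, 8.72 and 8.75 under paraquat in wild-type mice. The groups did not overlap, and the log2 fold change was 0.38 (SE 0.12, adjusted p = 0.16, limma). Its other 2 probe sets were weaker and gave 0.09 and 0.15. Without knock-out paraquat array 2 Prdx4 was called in wild-type mice (adjusted p = 0.036, limma). The same held in a fit of the compared arrays only and with array weights, and with array weights Prdx4 was called in knock-out mice too. Srxn1, a gene known to rise strongly with NRF2, had a log2 fold change of 0.03 in wild-type mice (95% confidence interval -0.20 to 0.27). In transgenic mice Srxn1 read 9.52, 9.26 and 9.27 under saline and 9.20, 9.22 and 9.08 under paraquat, lower by 0.18 without passing the test (log2 fold change -0.18, SE 0.11).

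The enzymes that act on superoxide and hydrogen peroxide directly showed no call in any genotype. In wild-type mice the log2 fold change was 0.03 for the cytosolic Sod1 (95% confidence interval -0.25 to 0.30) and -0.06 for the extracellular Sod3 (-0.32 to 0.21). For the mitochondrial Sod2 the interval ran from -0.21 to 0.20. Catalase, the peroxisomal enzyme that splits hydrogen peroxide, read 9.01, 9.02 and 8.96 under saline and 8.72, 9.28 and 8.98 under paraquat in wild-type mice. Those arrays overlapped fully. In knock-out mice Cat read 8.86, 9.13 and 9.05 under saline and 8.68, 8.12 and 8.75 under paraquat. All paraquat arrays were lower, and the log2 fold change of -0.50 was not called (SE 0.18, adjusted p = 0.16, limma). It was -0.30 without knock-out paraquat array 2, which held the lowest Cat value of all arrays (adjusted p = 0.57, limma).

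Glutathione synthesis and recycling showed no call either. Gclc and Gclm are the catalytic and modifier subunits of the enzyme that starts glutathione synthesis, Gss completes it and Gsr regenerates the reduced form. In wild-type mice their log2 fold changes were 0.04 for Gclc (SE 0.17), -0.14 for Gclm (SE 0.13), 0.01 for Gss (SE 0.09) and -0.02 for Gsr (SE 0.13). Gclm read 9.67, 9.62 and 9.77 under saline and 9.50, 9.56 and 9.58 under paraquat, so that all its wild-type paraquat arrays were lower, within a difference that did not pass the test.

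None of the 6 glutathione peroxidases tested was called under paraquat. Their log2 fold changes in wild-type mice were all above 0, up to 0.33 for the secreted Gpx3 (SE 0.16), and the median was 0.11. Of the thioredoxins, their reductases and glutaredoxin, 6 were tested and 0 called. In wild-type mice the cytosolic Txn1 had a log2 fold change of -0.03 (SE 0.11), its reductase Txnrd1 -0.08 (SE 0.13) and glutaredoxin Glrx 0.20 (SE 0.12). Txnrd1 in transgenic mice read 9.48, 9.53 and 9.43 under saline and 9.14, 9.57 and 9.07 under paraquat. The second paraquat array was the highest of these and the other paraquat arrays were the lowest, and the log2 fold change was -0.22 (SE 0.13). The mean over all probe sets of Txnrd1 turned it to 0.09.

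NRF2 is regulated mainly through the stability of the protein, and the transcripts of NRF2 and of its inhibitor KEAP1 were not called. The log2 fold change of Nfe2l2 was -0.03 in wild-type mice (SE 0.18) and -0.31 in knock-out mice (SE 0.18). Its lowest value, 7.0, was on knock-out paraquat array 2, and the other arrays of that group read 8.05 and 7.89. Without that array the log2 fold change of Nfe2l2 in knock-out mice was 0.02. Keap1 had a log2 fold change of 0.20 in wild-type mice (SE 0.16). The microsomal epoxide hydrolase Ephx1 had 0.08 (SE 0.14).

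**Figure D2:**
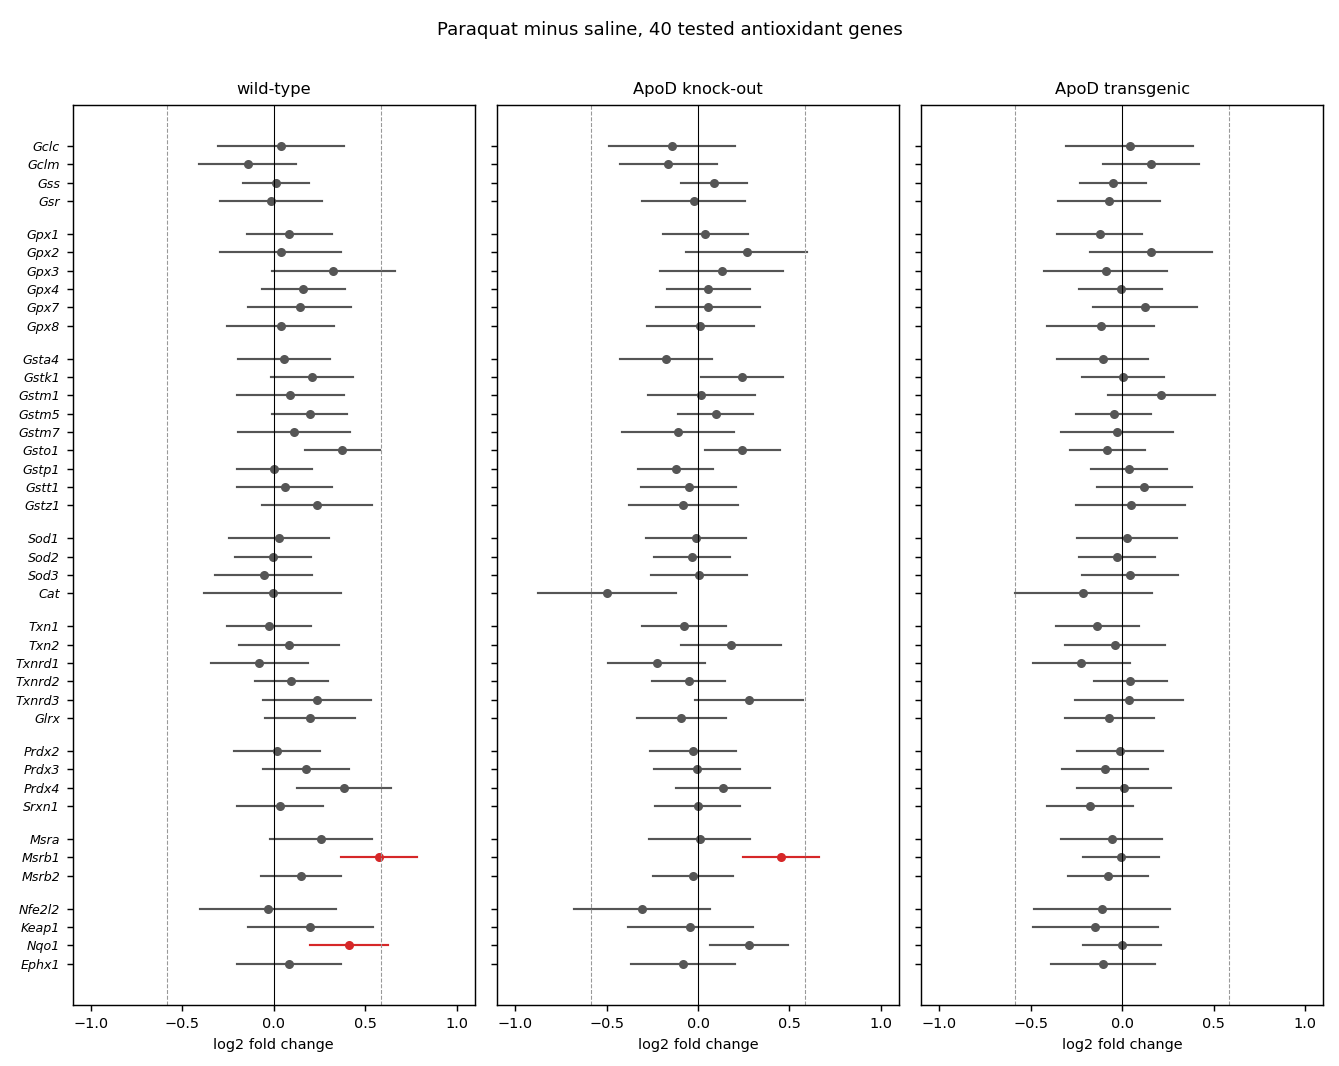
Log2 fold change of paraquat against saline with its 95% confidence interval for the 40 tested genes, in the order of their roles, in wild-type, ApoD knock-out and ApoD transgenic mice; red marks genes called higher, grey genes not called, and dashed lines a change of 1.5-fold. Msrb1 and Nqo1 are red in wild-type mice, Msrb1 alone in knock-out mice, and no gene in transgenic mice.

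The precision of these arrays limits what a missing call can say. The 95% confidence interval lay within a 1.5-fold change either way for 36 of the 40 members in wild-type and in knock-out mice and for 39 of 40 in transgenic mice. The members as a group moved little. Their median log2 fold change was 0.08 in wild-type mice beside 0.02 over all genes, -0.01 beside -0.09 in knock-out mice, and -0.03 beside -0.03 in transgenic mice. In wild-type mice 32 of the 40 members had a log2 fold change above 0, beside 55.0% of all genes, and 13 members had their highest value of all 18 arrays on the first wild-type paraquat array, beside 12.1% of all genes. Without knock-out paraquat array 2, the median over all genes in knock-out mice moved from -0.09 to 0.01.

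The design asks whether ApoD alters the response, which is the difference of the paraquat effect between genotypes. No member was called for that difference, neither for knock-out minus wild-type (0% of all genes called, 148 genes at an unadjusted p under 0.05) nor for transgenic minus wild-type (0.180% of all genes called). For transgenic minus wild-type, Msrb1 had the smallest p of the members, with -0.58 (SE 0.14, adjusted p = 0.17, limma), followed by Gsto1 with -0.46 (SE 0.14, adjusted p = 0.44, limma) and Nqo1 with -0.41 (SE 0.14, adjusted p = 0.61, limma). The difference of Msrb1 passed without knock-out paraquat array 2 (adjusted p = 0.047, limma) and with weighted arrays (adjusted p = 0.0011, limma), and in none of the other 24 of 26 alternatives, where the adjusted p reached 0.63. With 1 array left out, the difference of Msrb1 ran from -0.66 to -0.52. So the absence of a rise in transgenic mice was not shown by this test to differ from the rise in wild-type mice. For knock-out minus wild-type, the smallest p-values were those of Cat with -0.49 (SE 0.25), Glrx with -0.29 (SE 0.17) and Gstz1, an enzyme of tyrosine breakdown, with -0.31 (SE 0.20), each at an adjusted p of 0.87 by limma. Glrx read 8.83, 8.32 and 8.76 and Gstz1 7.67, 7.10 and 7.69 on the knock-out paraquat arrays, and the second of these arrays was the low one for both genes. The differences were -0.29 for Cat, -0.13 for Glrx and -0.12 for Gstz1 without knock-out paraquat array 2.

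No member was called between knock-out and wild-type mice. Under saline no antioxidant gene passed, beside 0.0240% of all genes, and the 95% confidence interval of every one of the 40 members lay within a 1.5-fold change. The smallest p-values belonged to Nqo1 with -0.15 (SE 0.10), Sod3 with -0.17 (SE 0.13) and Gstk1 with -0.12 (SE 0.11). Sod3 read 7.56, 7.51 and 7.87 in wild-type and 7.41, 7.43 and 7.60 in knock-out mice, which overlapped. Under paraquat none was called, beside 0.0120% of all genes. The smallest p-values there were those of Glrx with -0.34 (SE 0.12), Nqo1 with -0.28 (SE 0.10) and Cat with -0.48 (SE 0.18), each at an adjusted p of 0.37 by limma. They were -0.18 for Glrx, -0.21 for Nqo1 and -0.28 for Cat without knock-out paraquat array 2. The median over all genes in that comparison was -0.12, and it was -0.02 after a further quantile normalisation of the deposited values.

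The transgenic mice differed from wild-type mice in more members. Under saline Srxn1 and Gpx4 were higher and Gpx8 was lower, 7.50% of the members beside 6.36% of all genes. Under paraquat 7 members were lower and none higher, 17.5% of the members beside 19.0% of all genes. These 7 were Gpx8, Ephx1, Nqo1, Msrb1, Msrb2, Gstk1 and Gsto1. After a further quantile normalisation the split under paraquat was 3 higher and 5 lower: Gsr, Gpx4 and Srxn1 were higher, and Gpx8, Gstk1, Msrb2, Nqo1 and Ephx1 were lower. In that setting 2101 of all genes were called, so these calls do not set the members apart.

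Gpx8, a glutathione peroxidase of the endoplasmic reticulum membrane, had the largest difference of the 40 members under both treatments. Under saline it read 7.18, 7.30 and 7.10 in wild-type and 6.85, 6.79 and 6.31 in transgenic mice, and its log2 fold change was -0.54 (SE 0.14, adjusted p = 0.027, limma). Under paraquat it read 7.35, 7.08 and 7.26 in wild-type and 6.73, 6.35 and 6.52 in transgenic mice, and its log2 fold change was -0.70 (SE 0.14, adjusted p = 0.0025, limma). The genotypes did not overlap under either treatment, and the knock-out arrays, at 6.88 to 7.24, all lay above the transgenic arrays. The call under paraquat held in 26 of 26 alternatives. Under saline it was lost without any one of the 3 wild-type saline arrays or without transgenic saline array 2 or 3 (adjusted p between 0.0504 and 0.145, limma). Without transgenic arrays 3 of both treatments the log2 fold change under saline was -0.37 and was not called, and in a fit of the compared arrays only it was not called either.

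Ephx1, which hydrolyses epoxides of drugs and pollutants, followed the same direction. Under paraquat it read 9.17, 9.14 and 9.16 in wild-type and 8.56, 8.74 and 8.31 in transgenic mice. All transgenic arrays were lower, and the log2 fold change was -0.62 (SE 0.14, adjusted p = 0.0043, limma), and the call held in 26 of 26 alternatives. Under saline it read 9.08, 8.99 and 9.16 in wild-type and 8.40, 8.64 and 8.88 in transgenic mice. These groups did not overlap either, and the log2 fold change of -0.44 missed the threshold (SE 0.14, adjusted p = 0.061, limma). It passed without knock-out paraquat array 2 (adjusted p = 0.015, limma), without transgenic arrays 3 of both treatments (-0.56, adjusted p = 0.024, limma) and after quantile normalisation (adjusted p = 0.025, limma).

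Markers of other cell types moved with genotype beside these members. The mean of 6 choroid plexus genes lay between 8.17 and 8.40 in wild-type mice under saline, and between 6.13 and 7.34 in transgenic mice. Under paraquat it lay between 8.10 and 8.29 in wild-type and between 6.87 and 7.80 in transgenic mice. Of its 5 tested genes, 5 were called lower in transgenic mice under saline and 3 under paraquat. Of 5 tested genes of meninges and fibroblasts, 3 were called lower under each treatment. Ttr, the abundant choroid plexus transcript, read 14.37 to 14.47 in wild-type mice. The third transgenic saline array had the lowest Ttr value, 11.98. Of the transgenic saline arrays it had the lowest Gpx8 value, 6.31, and the highest Ephx1 value, 8.88. The transgenic paraquat arrays differed from this. There the third array had the lowest choroid plexus mean, 6.87, and the lowest Ephx1 value, 8.31, while Gpx8 was lowest on the second, at 6.35. Of 9 tested genes of astrocytes and Bergmann glia, 2 were called higher in transgenic mice under saline and 3 under paraquat, with Gfap at 0.67 (SE 0.16) and 0.62 (SE 0.16). Under paraquat, 1 of 5 endothelial genes was called higher and 2 lower, and 2 of 6 microglia and 1 of 6 Purkinje neuron genes were called lower. Under saline, 1 of the endothelial genes was called lower. Of all 8320 genes, 529 (6.36%) were called under saline and 1578 (19.0%) under paraquat, 364 and 1192 of them lower. The mean of 7 oligodendrocyte genes lay between 11.51 and 12.07 in transgenic mice under saline, beside 11.64 to 11.72 in wild-type mice, and no gene of the list was called. The part of these cell types in the differences of the antioxidant genes was not tested, and in bulk tissue fewer cells of a type and less RNA per cell cannot be told apart.

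Srxn1 and Gpx4 were the members called higher in the transgenic. Srxn1 read 8.90, 8.83 and 8.93 in wild-type and 9.52, 9.26 and 9.27 in transgenic mice under saline. The groups did not overlap, and the log2 fold change was 0.46 (SE 0.11, adjusted p = 0.021, limma). Its other 3 probe sets gave 0.41, 0.40 and 0.28. The call was lost without the first or second wild-type saline array (adjusted p = 0.0819 and 0.106, limma). Under paraquat the values were 8.76, 8.92 and 9.07 in wild-type and 9.20, 9.22 and 9.08 in transgenic mice, and the log2 fold change of 0.25 was not called (SE 0.11, adjusted p = 0.12, limma).

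Gpx4 reduces lipid hydroperoxides within membranes and is the main brake on ferroptosis. It read 12.03, 11.90 and 12.06 in wild-type and 12.19, 12.41 and 12.54 in transgenic mice under saline. All transgenic arrays were higher, and the log2 fold change was 0.39 (SE 0.11, adjusted p = 0.038, limma), and its second probe set gave 0.22. The call was lost without any one of the 3 wild-type saline arrays, knock-out saline array 2 or 3, transgenic saline array 2 or 3 or wild-type paraquat array 3 (adjusted p between 0.0507 and 0.187, limma). It was also lost without the filter on low values (adjusted p = 0.053, limma), with the mean of all probe sets (0.30, adjusted p = 0.082, limma) and in a fit of the compared arrays only (adjusted p = 0.068, limma). Without transgenic arrays 3 of both treatments the log2 fold change was 0.31 and was not called (adjusted p = 0.15, limma). Under paraquat Gpx4 had a log2 fold change of 0.22 (SE 0.11). Gsr, glutathione reductase, pointed the same way without a call, at 0.40 under saline (SE 0.13, adjusted p = 0.076, limma) and 0.34 under paraquat (SE 0.13, adjusted p = 0.078, limma).

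**Figure D3:**
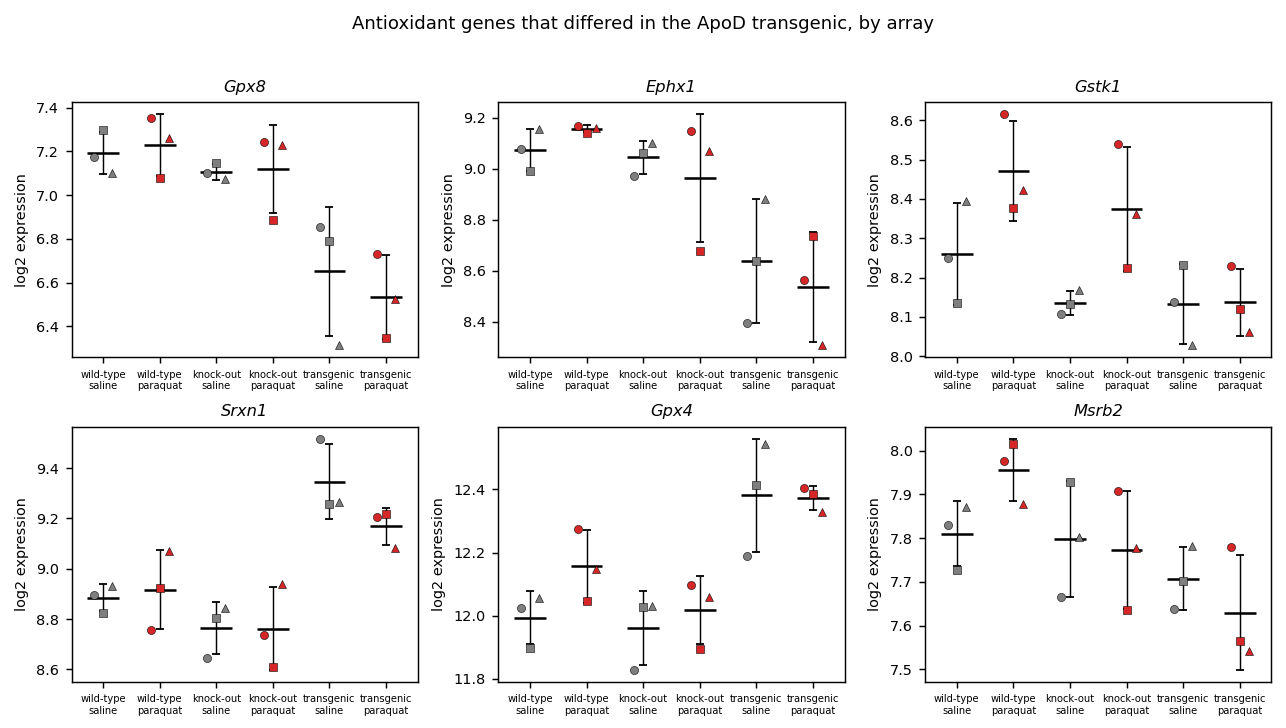
Log2 expression of Gpx8, Ephx1, Gstk1, Srxn1, Gpx4 and Msrb2 on each of the 18 arrays, by group, with symbols, lines and bars as in the plot of Msrb1 and Nqo1 (mean and SD, n = 3). Gpx8 and Ephx1 are lower on the transgenic arrays under both treatments, and Srxn1 and Gpx4 read highest on transgenic arrays.

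Nqo1, Msrb1 and Gsto1, the members with the smallest p-values for the difference of the paraquat effect, were called lower in transgenic than in wild-type mice under paraquat and were not called under saline. Under saline the log2 fold changes were -0.00 for Nqo1, 0.21 for Msrb1 and 0.17 for Gsto1. Under paraquat they were -0.41 for Nqo1 (SE 0.10, adjusted p = 0.0089, limma), -0.37 for Msrb1 (SE 0.10, adjusted p = 0.013, limma) and -0.29 for Gsto1 (SE 0.10, adjusted p = 0.046, limma). This comparison uses the same wild-type paraquat arrays as the wild-type response above, so the values are not independent of it. It is also a part of the difference by which these genes were picked, so low values under paraquat were favoured beforehand. The call of Nqo1 held in 26 of 26 alternatives. That of Msrb1 was lost after a further quantile normalisation (-0.29, adjusted p = 0.064, limma), and that of Gsto1 held in 7 of 26, with an adjusted p up to 0.18 by limma.

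Msrb2 and Gstk1, both enzymes of mitochondria, completed the list. Msrb2 read 7.98, 8.02 and 7.88 in wild-type and 7.78, 7.57 and 7.54 in transgenic mice under paraquat, and its log2 fold change was -0.33 (SE 0.10, adjusted p = 0.035, limma). Gstk1 read 8.62, 8.38 and 8.42 in wild-type and 8.23, 8.12 and 8.06 in transgenic mice, and its log2 fold change was -0.33 (SE 0.11, adjusted p = 0.036, limma). Neither gene overlapped between the genotypes under paraquat, and neither was called under saline. The call of Msrb2 was lost without wild-type paraquat array 1 or 2 or transgenic paraquat array 2 or 3 (adjusted p between 0.10 and 0.124, limma). That of Gstk1 was lost without any one of the wild-type paraquat arrays or without transgenic paraquat array 2 or 3 (adjusted p between 0.0542 and 0.163, limma). Both calls were lost without transgenic arrays 3 of both treatments.

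**Figure D4:**
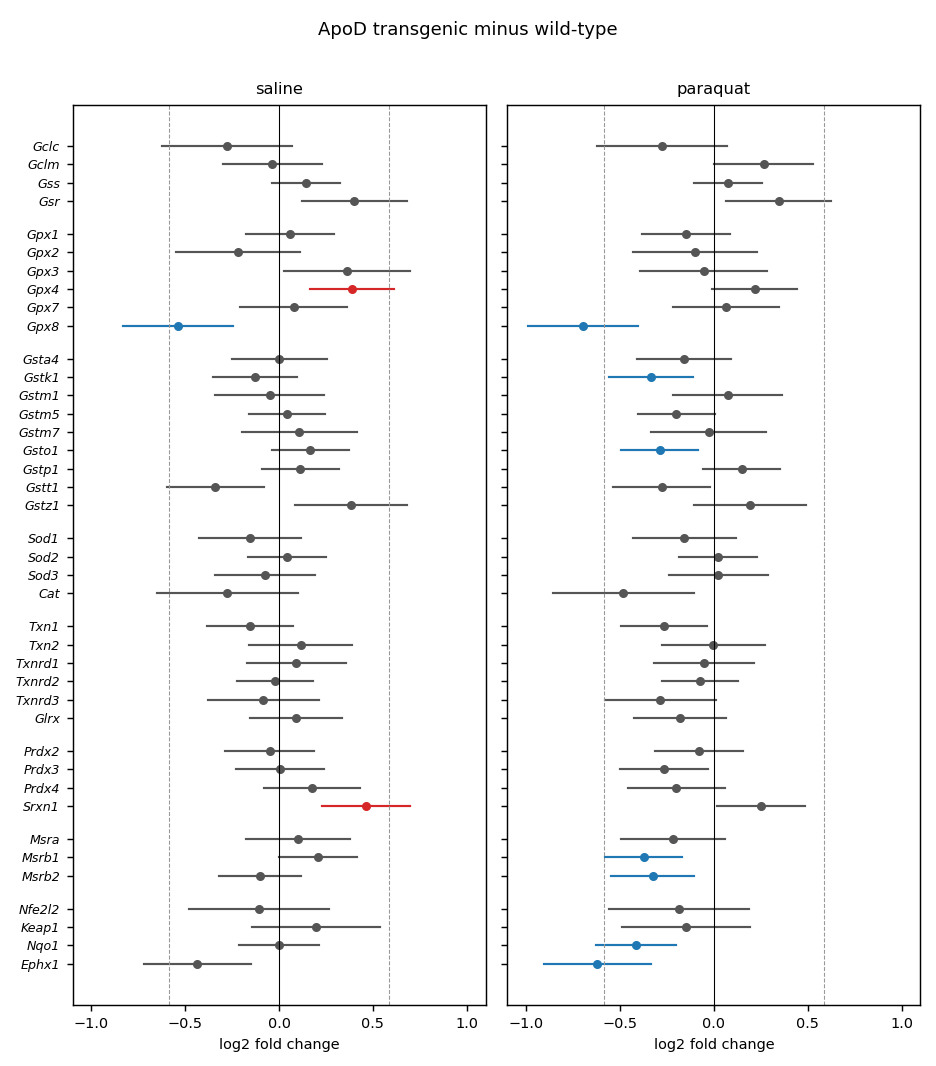
Log2 fold change of ApoD transgenic against wild-type mice with its 95% confidence interval for the 40 tested genes, under saline and under paraquat; red marks genes called higher, blue genes called lower and grey genes not called, and dashed lines a change of 1.5-fold. Under saline Srxn1 and Gpx4 are red and Gpx8 is blue, and under paraquat the 7 called genes are all blue.

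Genes outside the chosen symbols that work in the same pathways gave the setting of these values. Of 35 tested further genes of the thioredoxin system, the selenoproteins and the sestrins, 2 were called higher by paraquat in wild-type mice, none lower. In the same comparison 2.0% of all genes were called. Txnip, whose product binds thioredoxin and inhibits it, read 8.57, 8.82 and 8.83 under saline and 10.08, 10.17 and 10.19 under paraquat, and its log2 fold change was 1.41 (SE 0.17, adjusted p = 4.96e-05, limma). In knock-out mice it read 8.57, 8.62 and 8.75 under saline and 10.21, 9.90 and 9.69 under paraquat, and its log2 fold change was 1.29 (SE 0.17, adjusted p = 1.6e-04, limma). All paraquat arrays of both genotypes lay above all their saline arrays, and each call held in 26 of 26 alternatives. In transgenic mice the values were 8.50, 8.81 and 8.45 under saline and 9.14, 9.03 and 8.30 under paraquat, which overlapped, and the log2 fold change was 0.24 (SE 0.17). The difference of the effect between transgenic and wild-type mice was -1.17 for Txnip (SE 0.24, adjusted p = 0.058, limma). Sesn1, a sestrin that takes part in stress signalling, rose in wild-type mice by 0.45 on the log2 scale (SE 0.11, adjusted p = 0.026, limma), from 10.11, 10.16 and 10.15 to 10.60, 10.60 and 10.57. This call held in 19 of 26 alternatives.

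Of 30 tested further genes of glutathione metabolism, 2 were called higher in wild-type mice and none in knock-out or transgenic mice. The shares over all genes were 2.0% in wild-type, 2.26% in knock-out and 0% in transgenic mice, where no gene at all passed. Cth makes cysteine, the limiting building block of glutathione. It read 5.66, 5.68 and 5.73 under saline and 6.66, 6.47 and 6.42 under paraquat, and its log2 fold change was 0.83 (SE 0.21, adjusted p = 0.043, limma). Chac1, an enzyme that degrades glutathione, read 7.34, 7.32 and 7.39 under saline and 7.99, 7.79 and 7.98 under paraquat, and its log2 fold change was 0.57 (SE 0.14, adjusted p = 0.042, limma). Neither gene overlapped between treatments. The saline values of Cth lay below all values of Gpx7, which read 6.18 to 6.81. Gpx7 reached the floor of the test on 14 arrays, so Cth was near or below that floor under saline. A gene that passes the filter through its higher arrays favours such a rise beforehand. On how many arrays Cth reached the floor is not given here. The call of Cth held in 13 of 26 alternatives and that of Chac1 in 16 of 26. Averaged over the genotypes, Chac1 was called higher, and Lap3, an aminopeptidase, was called lower at -0.23 (SE 0.06, adjusted p = 0.024, limma). The average includes knock-out paraquat array 2, and the value of Lap3 without it is not given here.

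Of 22 tested further genes of the NRF2 pathway, Mafk alone was called in wild-type mice and Cbr3 alone in knock-out mice. The shares over all genes were 2.0% and 2.26%. Mafk, a small Maf protein that pairs with NRF2 on DNA, rose from 7.90, 8.0 and 7.97 to 8.45, 8.36 and 8.49, and its log2 fold change was 0.48 (SE 0.10, adjusted p = 0.010, limma). This call held in 23 of 26 alternatives. Cbr3, a carbonyl reductase, fell in knock-out mice from 6.39, 6.53 and 6.53 to 6.23, 5.64 and 5.91, and its log2 fold change was -0.56 (SE 0.13, adjusted p = 0.020, limma). That call held in 21 of 26 alternatives. Its lowest value was again on knock-out paraquat array 2. The knock-out values of Cbr3 lie near or below the floor of the test, so the size of this fall is uncertain. Averaged over the genotypes, Mafk was called higher, and Cbr3 and the small Maf protein Mafg were called lower, Mafg at -0.32 (SE 0.09, adjusted p = 0.038, limma). Without knock-out paraquat array 2 the median of this average over all genes moved from -0.029 to 0.002. The value of Mafg without that array is not given here. Hmox1, heme oxygenase 1 and a standard NRF2 target, read between 5.89 and 6.61 on the 18 arrays. This range alone does not say whether it differed between groups. Such values lie near the floor of the test, which Gpx7, at 6.18 to 6.81, reached on 14 arrays.

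**Figure D5:**
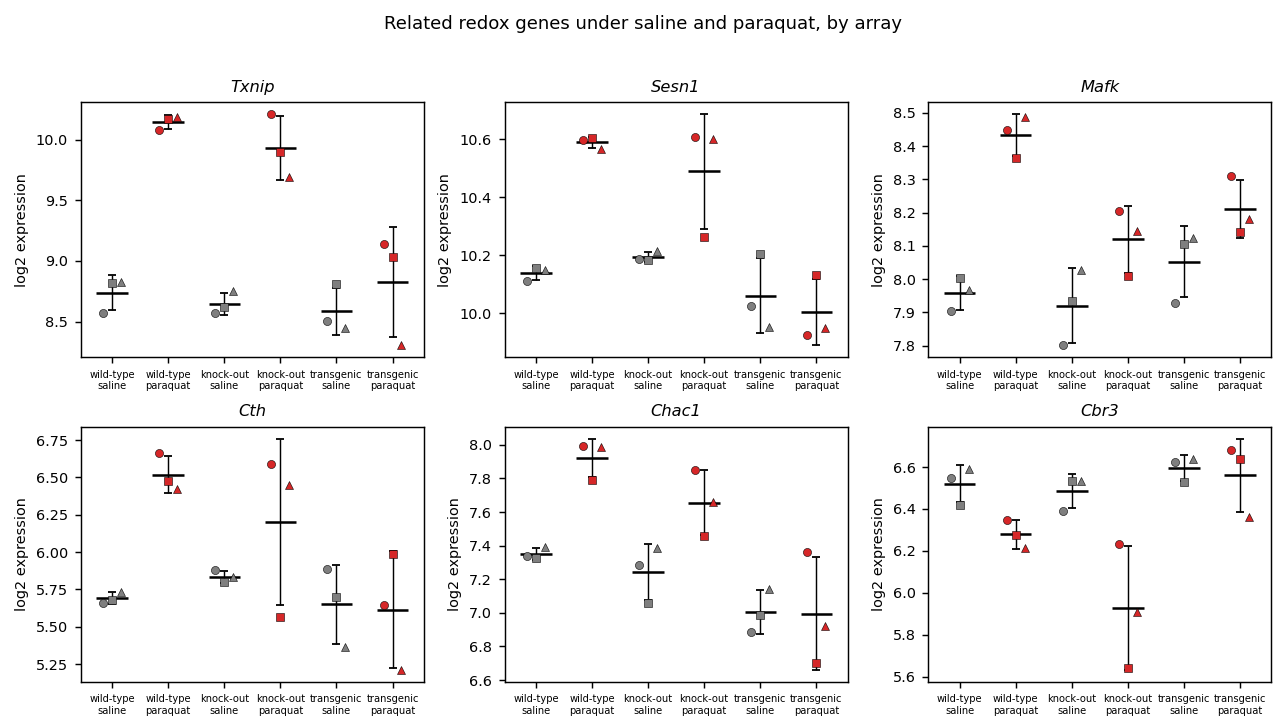
Log2 expression of Txnip, Sesn1, Mafk, Cth, Chac1 and Cbr3, genes outside the chosen symbols, on each of the 18 arrays, with symbols, lines and bars as in the plot of Msrb1 and Nqo1 (mean and SD, n = 3). Txnip lies between 10.08 and 10.19 on the wild-type paraquat arrays, and between 8.30 and 9.14 on the transgenic paraquat arrays.

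Markers of other cell types changed with paraquat beside these genes. Of 5 tested endothelial markers, 1 was called higher and 2 lower in wild-type mice: Slc2a1, the glucose transporter of the blood-brain barrier, at 0.81 (SE 0.18), Cldn5 at -0.67 (SE 0.16) and Tek at -0.83 (SE 0.18), with adjusted p-values of 0.019, 0.029 and 0.015 by limma. The mean of 7 endothelial genes lay between 8.06 and 8.24 under saline and between 7.95 and 7.98 under paraquat. Sox9, 1 of 9 astrocyte and Bergmann glia genes, and Cx3cr1, 1 of 6 microglia genes, were called lower at -0.45 (SE 0.11) and -0.75 (SE 0.16). The mean of 7 microglia genes lay between 7.69 and 7.83 under saline and between 7.57 and 7.60 under paraquat. The mean of 6 Purkinje neuron genes lay between 12.64 and 12.68 under saline and between 12.57 and 12.61 under paraquat, with no gene of that list called. The mean of 7 oligodendrocyte genes, none of them called, lay between 11.64 and 11.72 under saline and between 11.48 and 11.65 under paraquat. No gene of the choroid plexus, meninges or granule neuron lists was called between paraquat and saline in wild-type mice. Of all genes, 2.0% were called in that comparison. The part of these cell types in the values of the antioxidant genes was not tested.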

How the data were processed

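The values are 1 log2 signal per probe set and array, deposited by the authors for 18 arrays, and ran from 3.13 to 14.9. RMA, which corrects background, normalises by quantiles and summarises probes, is named without a version in the submitters' processing notes. Symbols came from the platform annotation: 20380 of 22690 probe sets had 1 symbol, 691 several and 1555 none. Where a gene had several probe sets, as 23 of the 52 members did, the one with the largest average across the 18 arrays was used. All 52 members matched RefSeq under the same symbol. A gene was tested where 3 or more arrays gave it a value at or above their own 40th percentile.

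The 6 group means were fitted to all 18 arrays together with limma 3.58.1 (lmFit and eBayes) under R 4.3.3, with 12 residual degrees of freedom, for 10 comparisons. Adjusted p-values are Benjamini-Hochberg over the 8320 genes of a comparison. The fit was also run on simulated data with independent noise for each gene and no outlying array. That run cannot speak to calls that depend on such arrays. A permutation test of 3 against 3 arrays cannot go below p = 0.1, so single genes were not tested that way. The members, lists and tests were chosen with earlier results of these data known. Members are given in full where called, among the 3 smallest p-values of a comparison, or among the 3 highest and lowest means, and other members were named for their roles. Of the related lists, genes called under paraquat are named. Scanner files were not used here, so scan batches were not examined, and the number of arrays limits the precision. Titles give each group replicates 1 to 3. In an alternative fit these numbers entered as a block shared by all 6 groups, which is not a pairing within a genotype.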

Additional observations from a re-analysis of the deposited data

How the results depend on the processing

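Counts of called members were recomputed under 7 other settings, with each array left out in turn, and without transgenic arrays 3 of both treatments, chosen after seeing the data. Paraquat in wild-type mice called 2 members, and 1 with the replicate block, without the filter or with a variance trend, 6 in a fit of the compared arrays only, 10 with array weights, and 1 to 4 with 1 array left out. Of all 8320 genes, 166 were called at first, 849 and 1059 in those fits, and 82 to 353 with 1 array left out. With the replicate block, without the filter and with a variance trend, 158, 155 and 166 genes were called. The 6 members were Gpx3, Gsto1, Prdx4, Msra, Msrb1 and Nqo1, and the 10 were these with Gstm5, Gstz1, Txnrd3 and Glrx. In knock-out mice the count of 1 became 2 after quantile normalisation (255 of all genes, from 188) and 0 with the compared arrays only (44 of all genes). It became 9 with array weights (2173 of all genes), and 0 to 1 with 1 array left out. All genes called numbered 63 without knock-out saline array 2 and 614 without knock-out paraquat array 3. The 9 members were Gpx1, Gstk1, Gstm5, Gsto1, Cat, Prdx4, Msra, Msrb1 and Nqo1. In transgenic mice the count of 0 became 2 with array weights (409 of all genes, from 0). The average over genotypes, 2, became 5 after quantile normalisation, 10 with array weights (600 and 2263 of all genes, from 407), and 1 to 4 with 1 array left out. All genes called in the average numbered 261 without knock-out saline array 2 and 614 without knock-out paraquat array 2. Transgenic against wild-type under saline, 3, became 5 after quantile normalisation, 1 with the compared arrays only, 15 with array weights, and 0 to 7 with 1 array left out, while the count over all genes, 529, became 1165, 502, 4112, and 108 to 1564. Under paraquat, 7 became 22 with array weights and 4 to 12 with 1 array left out, while the count over all genes, 1578, became 4129, and 828 to 2823. The difference of the paraquat effect between transgenic and wild-type, 0, became 5 with array weights (687 of all genes, from 15), and 0 to 1 with 1 array left out. The 1 came without knock-out paraquat array 2, where 34 of all genes were called. Without knock-out paraquat array 2 the counts were 4 in wild-type mice (Gsto1, Prdx4, Msrb1 and Nqo1), 6 for transgenic under saline and 12 under paraquat, beside 353, 1564 and 2823 of all genes. Without transgenic arrays 3 they were 3 and 5 for transgenic under saline and paraquat, and the members called changed. Under saline these were Srxn1, higher, and Gstt1 and Ephx1, lower. Under paraquat they were Gpx8, Prdx3, Msrb1, Nqo1 and Ephx1, all lower. The counts over all genes in that fit are not given here, so these counts have no background beside them. No called value reversed. The causes were not tested. Correlations of the deviations of same-numbered arrays ran from 0.13 to 0.42 for the 3 transgenic pairs, from 0.09 to 0.34 in wild-type and from -0.28 to -0.09 in knock-out mice, and were highest for the own number in 3 of 9. In the transgenic arrays alone, with the number as a block, chosen after seeing the data, 0 members and 12 of all genes were called by limma, and 0 members and 174 genes had an unadjusted p under 0.05. Over all arrays the replicate block ended the calls of Nqo1 in wild-type mice (adjusted p = 0.056, limma) and of Gsto1 in transgenic against wild-type under paraquat (adjusted p = 0.051, limma). With 3 pools a group, the 95% interval of a log2 fold change reached 0.27 either side for the median gene.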
